A study of Mus musculus with 15 samples.

Results

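The 7 genes described here, Ly6c2, Plac8, Vcan, F13a1, Chil3, Fn1 and Thbs1, are genes that mouse classical monocytes are known to express. They were taken by name from the 50554 genes counted in each of 15 RNA sequencing libraries, and all 7 passed the filter on low counts. The libraries were made from dendritic cells grown out of mouse bone marrow (BMDCs). The cultures came from mice that carried CreERT2, a Cre recombinase switched on by tamoxifen, and were grown from marrow taken more than 12 weeks after tamoxifen, for 9 days with 20 ng/mL GM-CSF. The promoter that drives CreERT2 and the strain and age of the mice are not stated in the labels. In the Δ/DN group tamoxifen removed a floxed Mysm1 allele and left an allele for catalytically inactive MYSM1, and in the Δ/+ group it left a wild-type allele. MYSM1 is a histone H2A deubiquitinase needed for normal blood cell formation. Cells were then held for 18 h with 10 ng/mL lipopolysaccharide (LPS), a bacterial cell wall component sensed through TLR4, or without it (US, unstimulated). This gave 4 Δ/DN LPS, 3 Δ/+ LPS, 4 Δ/DN US and 4 Δ/+ US libraries, from 8 cultures of which 7 gave a library with and a library without LPS.

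A letter stands for each genotype, and the letters are matched to genotypes one way in the fields of the samples and the other way in the series text. Genotypes follow the sample fields. Under the other reading every genotype difference would change sign. Total Mysm1 lay between 28.1 and 48.9 CPM in the Δ/DN libraries and between 41.3 and 54.1 CPM in the Δ/+ libraries. It checks no label, since each genotype keeps 1 undeleted allele. CPM is the read count scaled to the TMM-adjusted library size. Libraries held 37256651 to 104041282 counted reads. Δ/DN culture 4 stood apart from the others, with Xist at 1166 CPM with LPS and 1144 CPM without, while no other library passed 0.0645 CPM and only this culture had no reads of the Y-linked Ddx3y. In Δ/DN culture 3 Ddx3y was at 3.69 CPM with LPS and 1.94 CPM without. The libraries of the other cultures outside culture 4 had 47.2 to 105 CPM. Kdm5d, also Y-linked, was at 22.2 CPM with LPS and 20.7 CPM without in Δ/DN culture 3. The libraries of those other cultures had 18.7 to 26.9 CPM of Kdm5d, and Δ/DN culture 4 had no reads of it. Library names fall into set 2 and set 3, and Δ/DN cultures 3 and 4 and the Δ/+ US replicate 4 library make up set 3, which holds no Δ/+ LPS library. Dendritic cell markers were present: Itgax, the CD11c integrin, averaged 936 to 1397 CPM and Cd74, the MHC class II invariant chain, 3366 to 6586 CPM over the 4 groups. Flt3 averaged 1.19 to 1.52 CPM and Cd209a at most 1.00 CPM.

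Classical monocytes leave the marrow as Ly6C-high cells, enter inflamed tissue and can become macrophages or monocyte-derived dendritic cells there. GM-CSF cultures of marrow grow through such a monocyte stage and hold macrophage-like cells beside dendritic cells. As these cells mature, some surface proteins of monocytes are lost, and other proteins, matrix and clotting proteins among them, can be kept or induced. Ly6c2 encodes the GPI-anchored surface protein Ly6C2 by which the cells are sorted. Plac8 encodes a small cysteine-rich protein found in many leukocytes. Vcan, Fn1 and Thbs1 encode the extracellular matrix proteins versican, fibronectin and thrombospondin-1. F13a1 encodes the catalytic subunit of coagulation factor XIII, a transglutaminase that crosslinks fibrin. Chil3 encodes Ym1, a secreted chitinase-like protein also made by macrophages and neutrophil precursors.

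Promoters are shown for Ly6c2, Plac8 and Vcan, the 3 members that rose with LPS in both genotypes. Each line gives the 250 bases before the first start site listed by RefSeq, with GRCm38.p6 coordinates, and capitals mark matches to the motifs named after the sequences.
Ly6c2, chr15:75111972-75112221, minus strand: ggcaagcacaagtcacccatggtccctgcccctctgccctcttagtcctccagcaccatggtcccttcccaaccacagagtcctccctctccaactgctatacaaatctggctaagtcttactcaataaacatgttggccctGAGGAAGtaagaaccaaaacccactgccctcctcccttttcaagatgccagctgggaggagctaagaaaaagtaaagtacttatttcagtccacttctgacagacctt
Plac8, chr5:100572206-100572455, minus strand: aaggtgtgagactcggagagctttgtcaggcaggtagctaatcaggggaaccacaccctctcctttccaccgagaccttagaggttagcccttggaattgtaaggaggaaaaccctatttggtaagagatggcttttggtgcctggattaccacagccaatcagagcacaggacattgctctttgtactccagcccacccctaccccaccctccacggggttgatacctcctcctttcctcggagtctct
Vcan, chr13:89742513-89742762, minus strand: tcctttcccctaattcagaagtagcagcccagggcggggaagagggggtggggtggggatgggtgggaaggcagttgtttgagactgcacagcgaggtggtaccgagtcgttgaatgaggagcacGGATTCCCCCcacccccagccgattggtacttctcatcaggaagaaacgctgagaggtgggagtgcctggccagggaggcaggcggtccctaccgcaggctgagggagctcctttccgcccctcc
The motifs were searched on both strands. The PU.1 motif GAGGAAG was found in the Ly6c2 sequence, and 10.61% of 32851 promoter windows of this length hold it. An NF-kB motif, spelled GGG, any 5 bases, then CC, was found in the Vcan sequence and stands in 45.8% of the windows. The Plac8 sequence shown held neither these nor the C/EBP motif TTGCNNAA, the AP-1 motif TGANTCA or the interferon response motif of GAAA, any 2 bases and GAAA, which stand in 9.564%, 6.749% and 2.977% of the windows. None of the 5 motifs stood in all 3 sequences. RefSeq windows were matched for 5 of the 7 members. Second start sites are listed for Ly6c2, whose second window held 2 PU.1 matches, and for Plac8, whose second window held 1 C/EBP match. The first F13a1 window held the PU.1 motif and the Chil3 window the NF-kB motif.

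LPS raised Vcan, Plac8 and Ly6c2 in both genotypes and Thbs1 and Fn1 in Δ/DN cultures, and no member fell with LPS on TMM scaling. Without LPS, Thbs1 and Fn1 were lower in Δ/DN than in Δ/+ cultures. With LPS no member passed the test between genotypes. F13a1 and Chil3 passed neither comparison in the edgeR fit of all libraries without culture as a term, though other fits given below called some of their differences. In bulk RNA, fewer cells of a type and less RNA per cell cannot be told apart.

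**Figure D1:**
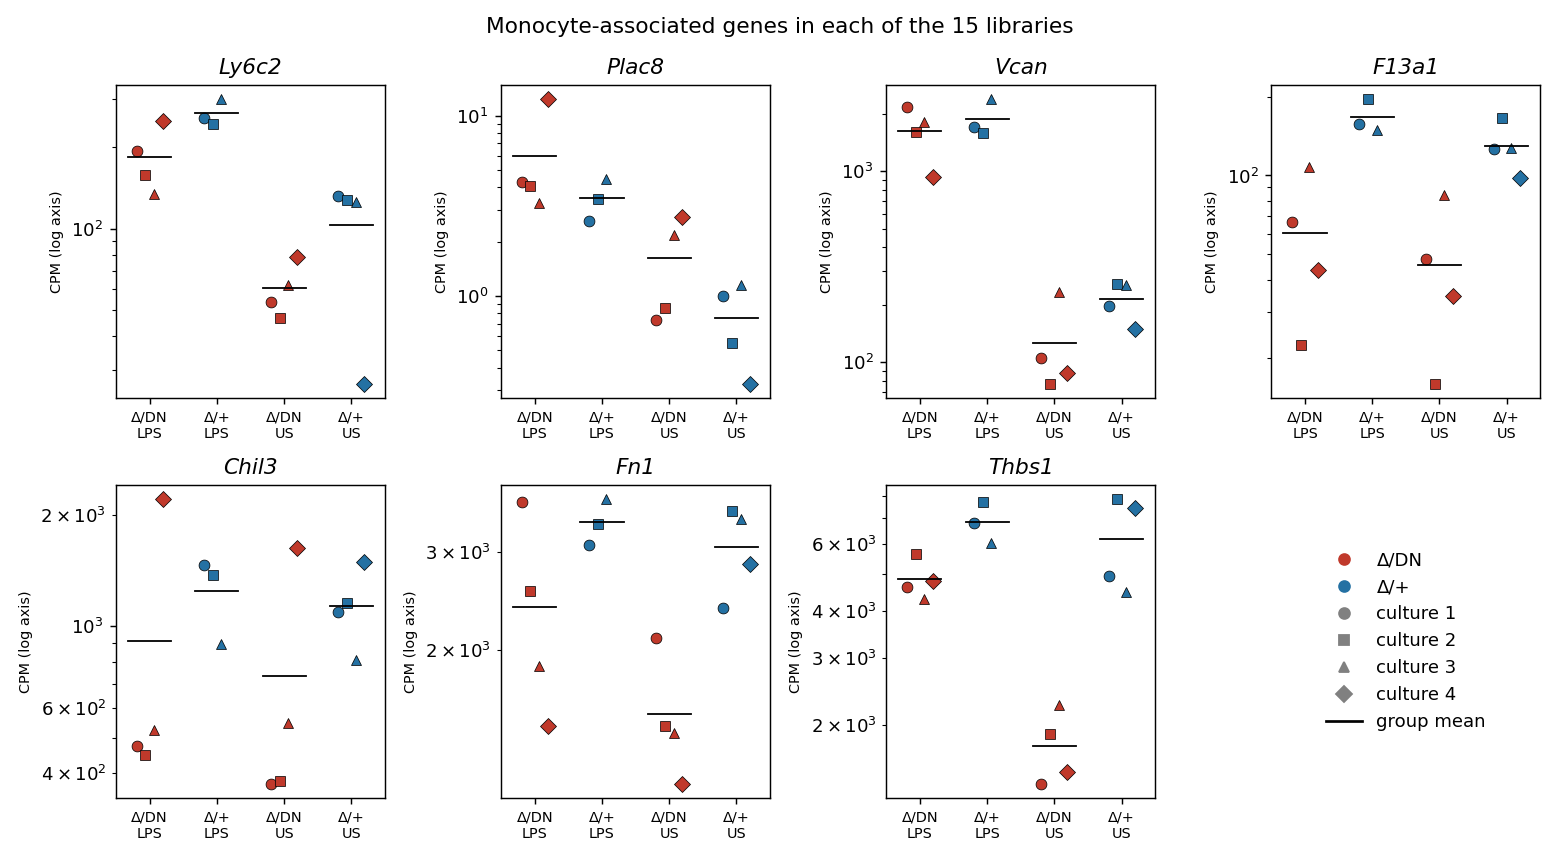
CPM (log axis) of each monocyte-associated gene in every library, by group, with 1 symbol shape per culture number and a line at the group mean. Vcan lies at 928 to 2378 CPM with LPS and at 77.3 to 258 CPM without, and Thbs1 without LPS lies at 1407 to 2268 CPM in Δ/DN and at 4489 to 7859 CPM in Δ/+ libraries.

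Ly6c2, the surface marker of the set, had 193, 158, 134 and 248 CPM in the Δ/DN LPS libraries and 255, 243 and 300.0 CPM in the Δ/+ LPS libraries. Without LPS it had 53.8, 46.9, 61.7 and 78.4 CPM in Δ/DN and 131, 128, 126 and 26.8 CPM in Δ/+ libraries. Every LPS library was above every US library of its genotype, and the low Δ/+ US replicate 4 library, from set 3, had less than every Δ/DN US library. Ly6c2 was 3.02-fold higher with than without LPS in Δ/DN cultures (log2 1.60 ± 0.40 SE, edgeR adjusted p = 0.00508) and 2.56-fold higher in Δ/+ cultures (log2 1.36 ± 0.42, edgeR adjusted p = 0.0172). The Δ/+ call was lost without Δ/+ LPS replicate 3 (edgeR adjusted p = 0.0584). Within cultures the ratio of LPS to US ran from 2.18 to 3.59 in 4 Δ/DN cultures and from 1.90 to 2.39 in 3 Δ/+ cultures. The fitted 2.56-fold in Δ/+ cultures lay above all 3 of these Δ/+ ratios. That fit also used the low Δ/+ US replicate 4 library, which has no LPS partner.

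Between genotypes Ly6c2 did not pass the test with LPS (log2 -0.42 ± 0.47, edgeR adjusted p = 0.625) or without (log2 -0.66 ± 0.44, edgeR adjusted p = 0.380). Within library set 2 alone it did, with log2 -0.60 with LPS (edgeR adjusted p = 0.0140) and -1.37 without (edgeR adjusted p = 0.000363). Without the low Δ/+ US replicate 4 library the difference without LPS was log2 -1.27 (edgeR adjusted p = 0.0134), so 1 library of the control genotype decides this call. Ly6c1, a near-identical neighbour in the same gene cluster, took 12.9 to 19.5% of the reads of the pair in every library and fell to 4.88 CPM in the same Δ/+ US library, against 25.5 to 31.4 CPM in the other Δ/+ US libraries. Of the 50-base windows of Ly6c2 exons, 13.87% also stand in Ly6c1, so part of these reads may be split between the copies and both values are uncertain.

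Plac8 was the least abundant member. It had 4.25, 4.08, 3.27 and 12.3 CPM in Δ/DN LPS libraries and 2.60, 3.47 and 4.45 CPM in Δ/+ LPS libraries, against 0.740, 0.855, 2.19 and 2.75 CPM in Δ/DN US and 1.00, 0.549, 1.16 and 0.326 CPM in Δ/+ US libraries. These rest on counts of 28 to 1043 a library. In 12 of 15 libraries more genes had a count of 2 than of 1, and whether a count stands for a fragment or for 1 read of a pair is not stated. Within each genotype all LPS libraries were above all US libraries, and Δ/DN culture 4 was highest both with and without LPS. Plac8 rose 3.85-fold with LPS in Δ/DN cultures (log2 1.95 ± 0.50, edgeR adjusted p = 0.00523) and 4.94-fold in Δ/+ cultures (log2 2.30 ± 0.54, edgeR adjusted p = 0.00300). The ratio of LPS to US within a culture was lowest, at 1.50, in Δ/DN culture 3 and reached 5.75 in Δ/DN culture 1 and 6.32 in Δ/+ culture 2.

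Plac8 was the one member whose difference between genotypes was positive, at log2 0.33 ± 0.57 with LPS (edgeR adjusted p = 0.766) and 0.69 ± 0.56 without (edgeR adjusted p = 0.484). Neither passed the test, and within library set 2 the difference without LPS was -0.19 (edgeR adjusted p = 0.797).

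Vcan had the largest fitted LPS difference of the 7 genes in each genotype. Its levels were 2154, 1597, 1810.4 and 928 CPM in Δ/DN LPS and 1697, 1576 and 2378 CPM in Δ/+ LPS libraries. In the US libraries they were 106, 77.3, 233 and 88.3 CPM in Δ/DN and 196, 258, 254 and 149 CPM in Δ/+ cultures. The lowest LPS library stood above the highest US library in both genotypes. The rise was 12.8-fold in Δ/DN (log2 3.68 ± 0.39, edgeR adjusted p = 6.23e-06) and 8.75-fold in Δ/+ cultures (log2 3.13 ± 0.40, edgeR adjusted p = 2.50e-05). Within cultures it was 20.4-fold and 20.7-fold in Δ/DN cultures 1 and 2, 7.77-fold and 10.5-fold in Δ/DN cultures 3 and 4, and 6.11-fold to 9.38-fold in the Δ/+ cultures.

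Without LPS, 3 of the 4 Δ/DN libraries had less Vcan than every Δ/+ library, and Δ/DN culture 3 lay within the Δ/+ range. That culture 3 library also had 5.39% of its reads on the 7SL RNA gene Rn7s1, against 1.69 to 2.91% in the other US libraries, and the part of this in the Vcan value was not tested. The difference was log2 -0.75 ± 0.38 and did not pass the test (edgeR adjusted p = 0.239). It was -1.17 without both libraries of Δ/DN culture 3 (edgeR adjusted p = 0.00536) and -1.39 within library set 2 (edgeR adjusted p = 0.0104). With LPS the genotypes overlapped (log2 -0.20 ± 0.40, edgeR adjusted p = 0.806; -0.01 within set 2).

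Fn1 had 3692, 2551, 1877 and 1464 CPM in Δ/DN LPS and 3092, 3376 and 3737 CPM in Δ/+ LPS libraries. Without LPS it had 2100.4, 1463, 1424 and 1153 CPM in Δ/DN and 2382, 3551, 3438 and 2861 CPM in Δ/+ libraries. All Δ/DN US libraries were below all Δ/+ US libraries, while with LPS Δ/DN culture 1 lay within the Δ/+ range and the other 3 below it. Without LPS Fn1 was 1.86-fold lower in Δ/DN than in Δ/+ cultures (log2 -0.89 ± 0.20, edgeR adjusted p = 0.0162). This call held in 5 of 8 fits that left out 1 US library and was lost without Δ/+ US replicate 2 (edgeR adjusted p = 0.0501), Δ/+ US replicate 4 (0.126) or, of the Δ/DN libraries, US replicate 2 (0.0730). Within set 2 the difference was -0.83 (edgeR adjusted p = 0.0502). With LPS it was -0.30 ± 0.22 (edgeR adjusted p = 0.432; -0.12 within set 2).

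Fn1 rose 1.52-fold with LPS in Δ/DN cultures (log2 0.60 ± 0.20, edgeR adjusted p = 0.0188), and all 4 cultures moved that way, by 1.27-fold to 1.76-fold. That call was lost without Δ/DN LPS replicate 1 (edgeR adjusted p = 0.0820) or Δ/DN US replicate 2 (0.0698). In Δ/+ cultures the LPS difference was log2 0.01 ± 0.22 (edgeR adjusted p = 0.969), with ratios of 0.951 to 1.30 in 3 cultures. The difference between the LPS effects of the genotypes was log2 0.59 ± 0.29 and did not pass the test (edgeR adjusted p = 0.580). Scaling by total counts in place of TMM moved the median of all genes between LPS and US from -0.09 to -0.67 in Δ/DN and from -0.08 to -0.73 in Δ/+ cultures. On that scale Fn1 was at log2 0.01 in Δ/DN and -0.64 in Δ/+ cultures (edgeR adjusted p = 0.00375), so the sign in Δ/+ cultures depends on the scaling.

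Thbs1, whose product binds CD36 and CD47, had the highest mean CPM of the members in each group. It had 4611, 5650.1, 4303 and 4778 CPM in Δ/DN LPS and 6804, 7701 and 6023 CPM in Δ/+ LPS libraries. Without LPS it had 1407, 1895, 2268 and 1511 CPM in Δ/DN and 4920.4, 7859, 4489 and 7419 CPM in Δ/+ libraries. The genotypes did not overlap in either condition, and the Δ/DN LPS libraries reached into the range of the Δ/+ US libraries. Without LPS Thbs1 was 3.55-fold lower in Δ/DN cultures (log2 -1.83 ± 0.21, edgeR adjusted p = 0.000805), a call made in all 8 fits that left out 1 US library and within set 2 (log2 -1.82, edgeR adjusted p = 0.00500). With LPS the difference was log2 -0.55 ± 0.23 and did not pass (edgeR adjusted p = 0.143; -0.41 within set 2).

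Thbs1 rose 2.75-fold with LPS in Δ/DN cultures (log2 1.46 ± 0.20, edgeR adjusted p = 3.31e-05), with ratios of 1.90 to 3.28 over 4 cultures. In Δ/+ cultures the difference was log2 0.18 ± 0.22 (edgeR adjusted p = 0.541), with ratios of 0.980 to 1.38 over 3 cultures, all below the lowest Δ/DN ratio. The LPS effect was 1.28 ± 0.30 larger on the log2 scale in Δ/DN than in Δ/+ cultures. This did not pass over all genes in the fit of unpaired libraries (edgeR adjusted p = 0.239), and did with culture as a term (log2 1.18, edgeR adjusted p = 0.0346) and in DESeq2 (log2 1.28, DESeq2 adjusted p = 0.0146). Limma voom with culture as a random effect gave log2 1.23 and an adjusted p of 0.0839. On total-count scaling the Δ/+ value was log2 -0.48 (edgeR adjusted p = 0.0532), the opposite sign.

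F13a1 had 66.2, 22.5, 108 and 43.7 CPM in Δ/DN LPS and 157, 196 and 149 CPM in Δ/+ LPS libraries. Without LPS it had 47.9, 16.0, 84.0 and 34.6 CPM in Δ/DN and 126, 166, 128 and 98.1 CPM in Δ/+ libraries. No Δ/DN library reached a Δ/+ library of the same treatment, and Δ/DN culture 2 was lowest and culture 3 highest of the Δ/DN cultures with and without LPS. The differences were log2 -1.78 ± 0.56 with LPS (edgeR adjusted p = 0.0708) and -1.73 ± 0.51 without (edgeR adjusted p = 0.0520), and neither passed. Limma voom with culture as a random effect called both (log2 -1.84, adjusted p = 0.0227 with LPS; log2 -1.83, adjusted p = 0.0107 without). Within library set 2 the values were -1.92 (edgeR adjusted p = 0.0725) and -2.15 (edgeR adjusted p = 0.0664). With LPS, F13a1 did not pass in Δ/DN (log2 0.41 ± 0.47, edgeR adjusted p = 0.510) or Δ/+ cultures (log2 0.45 ± 0.50, edgeR adjusted p = 0.504). It was higher with LPS in each of the 7 cultures, by 1.26-fold to 1.41-fold in Δ/DN and 1.17-fold to 1.25-fold in Δ/+ cultures. With culture as a term these passed (log2 0.41, edgeR adjusted p = 0.000206 in Δ/DN; log2 0.26, edgeR adjusted p = 0.0158 in Δ/+), in a fit that called 52.6% of genes in Δ/DN and 50.5% in Δ/+ cultures. In the fit without this term the Δ/+ value of log2 0.45 lay above the log2 ratios of all 3 Δ/+ cultures, 0.22 to 0.32. Total-count scaling turned both signs of that fit, to -0.15 in Δ/DN and -0.21 in Δ/+ cultures.

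Chil3 split the Δ/DN cultures. It had 474, 448 and 524 CPM in Δ/DN LPS libraries 1 to 3 and 2209 CPM in the Δ/DN LPS library of culture 4, and 1459, 1373 and 893 CPM in Δ/+ LPS libraries. Without LPS it had 376, 381, 548 and 1627 CPM in Δ/DN and 1094, 1156, 811 and 1489 CPM in Δ/+ libraries. Δ/DN culture 4 was above every Δ/+ library with and without LPS, and the other Δ/DN cultures were below every Δ/+ library. The differences were log2 -1.29 ± 0.49 with LPS (edgeR adjusted p = 0.120) and -1.16 ± 0.44 without (edgeR adjusted p = 0.113). Without both libraries of Δ/DN culture 4 they were -1.51 (edgeR adjusted p = 0.00357) and -1.42 (edgeR adjusted p = 0.00342), and within set 2 -1.43 (edgeR adjusted p = 0.00712) and -1.45 (edgeR adjusted p = 0.00666). Limma voom with culture as a random effect called both (log2 -1.29, adjusted p = 0.0474 with LPS; log2 -1.18, adjusted p = 0.0361 without). Between LPS and US libraries Chil3 differed by log2 0.31 ± 0.41 in Δ/DN (edgeR adjusted p = 0.577) and 0.44 ± 0.45 in Δ/+ cultures (edgeR adjusted p = 0.462), with ratios of 0.956 to 1.36 over the 7 cultures. The fitted Δ/+ value lay above the log2 ratios of all 3 Δ/+ cultures, 0.14 to 0.42. On total-count scaling both signs turned, to -0.26 in Δ/DN and -0.20 in Δ/+ cultures.

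Neutrophil markers were also highest in Δ/DN culture 4. The summed level of 17 of them was 1584 CPM with LPS and 1224 CPM without in Δ/DN culture 4, against 294 to 690.2 CPM and 192 to 489 CPM in the other Δ/DN cultures. In Δ/+ libraries the sum was 240.4 to 311 CPM with LPS and 143 to 234 CPM without, and no marker of the list was at 0 in any group. Among the other Δ/DN cultures, culture 2 had the highest sums, and its Chil3 was at 448 CPM with LPS and 381 CPM without. The median difference of the list between genotypes was log2 1.00 with LPS and 1.06 without. The part of these markers in the Chil3 result was not tested. Chil4, a near-identical copy, had 90.5 and 72.3 CPM in Δ/DN culture 4 with and without LPS, against 19.5 to 25.7 CPM in the other Δ/DN libraries and 38.8 to 74.3 CPM in Δ/+ libraries. It took 3.94 to 5.85% of the reads of the pair, and 16.88% of the 50-base windows of Chil3 exons also stand in Chil4, so reads may be split between them.

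Over the 7 members, 5 rose with LPS in Δ/DN cultures, where 48.2% of the 20865 genes tested were called and 23.1% rose. In Δ/+ cultures 3 rose, where 47.7% were called and 22.4% rose. None fell on this scaling. On total counts 4 rose in Δ/DN cultures, without Fn1, and in Δ/+ cultures Vcan and Plac8 rose and Fn1 fell. Their median LPS difference was log2 1.46 in Δ/DN and 0.45 in Δ/+ cultures, beside -0.09 and -0.08 over all genes. LPS libraries lay wholly above US libraries for 4 members in Δ/DN (20.1% of genes) and for 3 in Δ/+ cultures (24.3%).

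**Figure D2:**
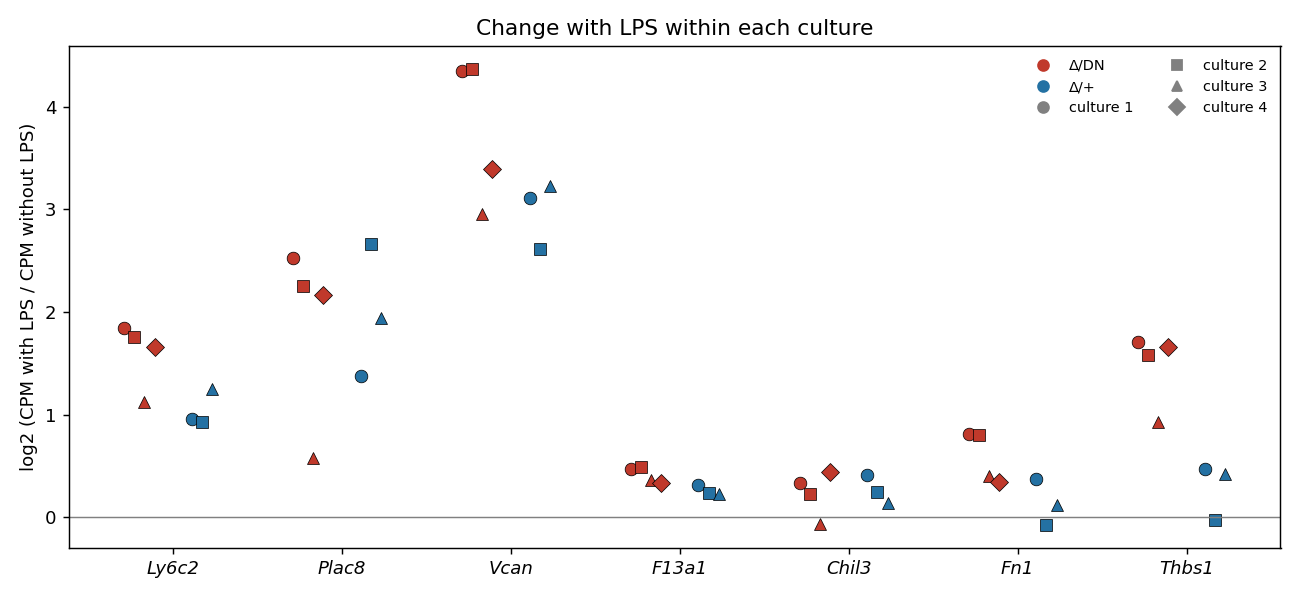
Log2 ratio of CPM with LPS to CPM without LPS within each of the 7 cultures that gave both libraries, 1 point per culture, in Δ/DN and Δ/+ cultures. Vcan, at 2.61 to 4.37, is highest in every culture but Δ/+ culture 2, where Plac8 is at 2.66, and for Thbs1 the 4 Δ/DN cultures (0.92 to 1.71) lie above the 3 Δ/+ cultures (-0.03 to 0.47).

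Between genotypes without LPS, 2 of the 7 were called, both lower in Δ/DN cultures, where 10.5% of genes were called and 5.45% were lower. With LPS 0 of 7 were called by edgeR, where 8.6% of genes were. At an unadjusted p under 0.05 there were 3 members, beside 5286 of all 20865 genes. DESeq2 and limma voom with culture as a random effect each called 2, F13a1 and Chil3, beside 17.1% and 9.8% of genes. DESeq2 and limma voom each called 4 members without LPS, beside 19.2% and 12.9% of genes. The median difference of the members was log2 -0.42 with LPS and -0.89 without, beside 0.01 over all genes in both, and 6 of 7 were negative in each. Groups did not overlap for F13a1 and Thbs1 with LPS (lower in Δ/DN, as for 12.0% of genes) and for F13a1, Fn1 and Thbs1 without (6.2%). The genotype comparisons with and without LPS use libraries of the same cultures, and each shares libraries with the LPS comparisons. No member passed the test that the LPS effect differs between genotypes, where edgeR called 0.00479% of genes, a single gene. At an unadjusted p under 0.05 there was 1 member, Thbs1, beside 1873 of the 20865 genes. Thbs1 was called by DESeq2 and by edgeR with culture as a term, beside 0.719% and 0.748% of genes.

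**Figure D3:**
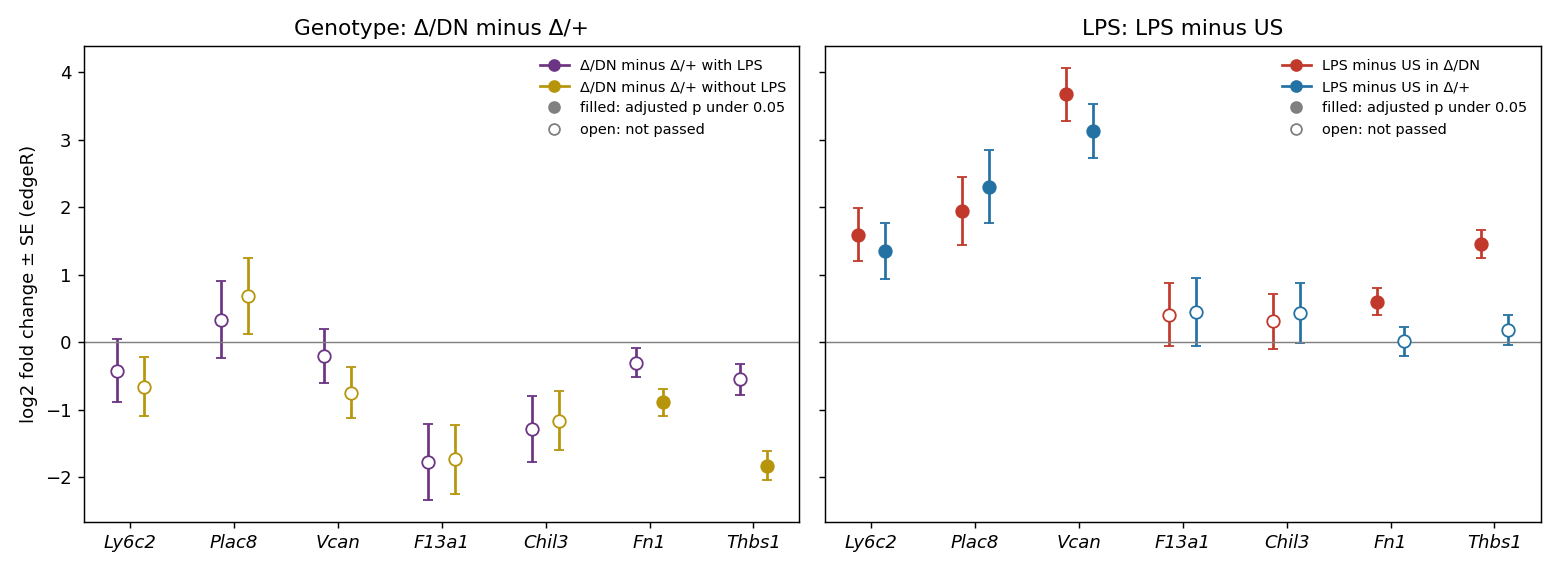
Log2 fold changes ± SE from edgeR for each member, on the left Δ/DN minus Δ/+ with and without LPS and on the right LPS minus US in each genotype, with filled points where the adjusted p was under 0.05. On the left Thbs1 (-1.83) and Fn1 (-0.89) without LPS are filled, and on the right Vcan (3.68 in Δ/DN and 3.13 in Δ/+) is highest.

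**Figure D4:**
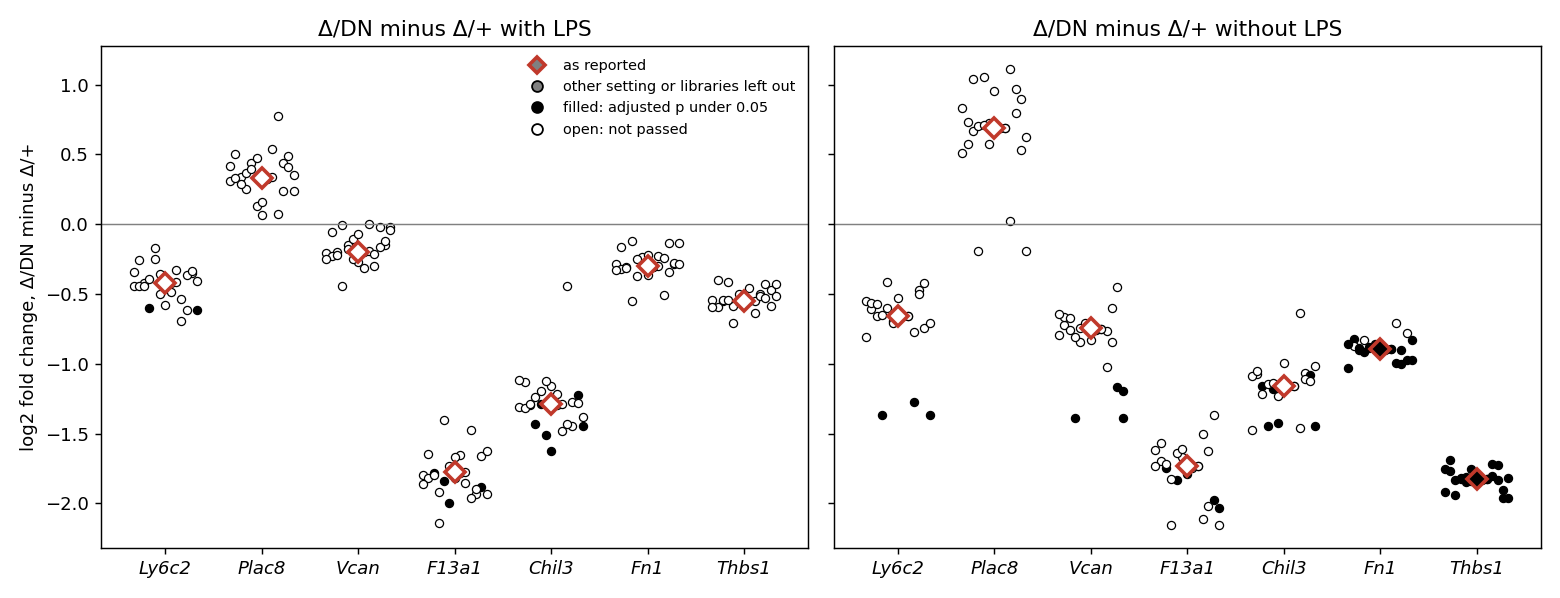
Log2 fold change of Δ/DN minus Δ/+ for each member as reported (diamonds) and under each other setting or set of libraries (circles), filled where the adjusted p was under 0.05. Thbs1 without LPS is filled throughout, and no member other than Plac8 without LPS and Vcan with LPS crosses 0.

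Other genes of classical monocytes were listed beside the members, with earlier results of these data known. Of 32 such genes, none was higher in Δ/DN cultures and 4 were lower without LPS (Cd14, Mgst1, Gda and Clec4e), and 1, Mgst1, was lower with LPS, beside 10.5% of all genes called without LPS and 8.6% with it. With 1 library left out these counts ran from 2 to 9 without LPS and from 0 to 4 with it. Cd14, the LPS co-receptor, averaged 84.0 CPM in Δ/DN US and 228 CPM in Δ/+ US cultures (log2 -1.61 ± 0.27, edgeR adjusted p = 0.00642). The median of the 32 was log2 0.01 without LPS and -0.16 with it. Without both libraries of Δ/DN culture 3 the counts were 10 without LPS and 6 with it.

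With LPS 10 of these 32 genes rose and 4 fell in each genotype, beside 48.2% of all genes called in Δ/DN and 47.7% in Δ/+ cultures. F10, clotting factor X, rose to 952 CPM in Δ/DN LPS cultures, against 274 CPM in Δ/DN US (log2 1.82 ± 0.16, edgeR adjusted p = 5.89e-07). Ccr2, the chemokine receptor by which classical monocytes leave the marrow, was named after its values were seen and fell to 144 CPM in Δ/DN LPS, against 499 CPM in Δ/DN US (log2 -1.79 ± 0.31, edgeR adjusted p = 0.000337). In Δ/+ cultures Ccr2 averaged 86.7 CPM with LPS and 382 CPM without (log2 -2.15 ± 0.35, edgeR adjusted p = 0.000215). Csf1r, the receptor of the macrophage growth factor CSF1, fell to 409 CPM in Δ/DN LPS, against 717 CPM in Δ/DN US (log2 -0.81 ± 0.10, edgeR adjusted p = 7.68e-06). So Ly6c2 and Ccr2, both surface markers of the same monocyte class, moved in opposite directions with LPS.

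Of 15 genes of non-classical monocytes, the patrolling class with low Ly6C, 5 were higher and 1 lower in Δ/DN cultures with LPS, and 3 higher and 1 lower without, beside 8.6% and 10.5% of all genes called. Adgre4, an adhesion receptor, averaged 34.0 CPM in Δ/DN LPS and 10.4 CPM in Δ/+ LPS cultures (log2 2.18 ± 0.49, edgeR adjusted p = 0.0231). Spn, the sialoglycoprotein CD43, averaged 54.2 CPM in Δ/DN US and 22.6 CPM in Δ/+ US cultures (log2 1.25 ± 0.32, edgeR adjusted p = 0.0296). Fabp4, a fatty acid binding protein, averaged 20.2 CPM in Δ/DN LPS and 52.5 CPM in Δ/+ LPS cultures (edgeR adjusted p = 0.0472). Nr4a1, the nuclear receptor these cells need, averaged 1.13 CPM in Δ/DN US and 1.84 CPM in Δ/+ US cultures (log2 -0.77 ± 0.21, edgeR adjusted p = 0.0355). The median of the 15 was log2 0.71 with LPS and 0.44 without. Fabp4, and Lrp1 among the receptors, were named after their values were seen. Leaving out 1 library moved the count called between 0 and 6 with LPS and between 0 and 8 without. The summed level of the 15 was 1864 to 2296 CPM in Δ/DN LPS and 2013 to 2434 CPM in Δ/+ LPS libraries.

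Of 24 listed receptors and binding partners of the secreted members, 21 passed the filter on low counts. In Δ/DN cultures 15 rose and none fell, and in Δ/+ cultures 12 rose and 1, Lrp1, fell, beside 23.1% and 22.4% of all genes that rose. Itgav, the integrin alpha V chain that binds fibronectin, averaged 322 CPM in Δ/DN LPS and 66.7 CPM in Δ/DN US cultures (log2 2.28 ± 0.18, edgeR adjusted p = 2.26e-07). Itga5, the alpha chain of the classical fibronectin receptor, averaged 625 CPM in Δ/DN LPS and 138 CPM in Δ/DN US cultures (log2 2.19 ± 0.17, edgeR adjusted p = 1.51e-07). Adamts4, a protease that cleaves versican, averaged 5.37 CPM in Δ/DN LPS and 0.119 CPM in Δ/DN US cultures (log2 5.39 ± 0.57, edgeR adjusted p = 4.81e-06).

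Without LPS 5 of the 21 were lower in Δ/DN cultures, beside 5.45% of all genes, and none was higher. Tgm2, a transglutaminase that crosslinks fibronectin, averaged 342 CPM in Δ/DN US and 1209 CPM in Δ/+ US cultures (log2 -1.87 ± 0.35, edgeR adjusted p = 0.0101). Cd44, a receptor of the hyaluronan that versican binds, averaged 572 CPM in Δ/DN US and 906 CPM in Δ/+ US cultures (log2 -0.75 ± 0.14, edgeR adjusted p = 0.00834). With LPS 2 were lower, Cd44 and Itgav, and 1, the integrin beta 3 chain Itgb3, was higher, beside 8.6% of all genes called. Leaving out 1 library moved these counts between 0 and 10 without LPS and between 0 and 5 with it. Of 19 genes in the families of the secreted members, such as the other thrombospondins, 7 passed the filter. With LPS in Δ/DN cultures 3 of these rose, Thbs4 among them, beside 23.1% of all genes that rose, and 1, Tgm1, fell. The fibrinogen genes Fga, Fgb and Fgg had no reads in any library.

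Markers of other cells that can make the matrix and clotting members were also summed. The summed level of 14 stromal and endothelial markers was 54.8 to 99.7 CPM in Δ/DN LPS and 130.5 to 169 CPM in Δ/+ LPS libraries, and 18.6 to 28.2 CPM in Δ/DN US and 35.8 to 53.9 CPM in Δ/+ US libraries. These sums were lower in Δ/DN than in Δ/+ libraries of the same treatment. Of the 14 genes 3 were higher and 2 lower in Δ/DN cultures without LPS, beside 10.5% of all genes called. With LPS none was higher and 1 was lower, beside 8.6% of all genes called. Lum was at 0 in both US groups. The sum of 10 megakaryocyte and platelet markers was 53.5 to 166 CPM in Δ/DN LPS and 50.3 to 57.8 CPM in Δ/+ LPS libraries, and 38.0 to 100.4 CPM in Δ/DN US and 14.6 to 51.1 CPM in Δ/+ US libraries. In Δ/DN culture 2 this sum was 166 CPM with LPS and 100.4 CPM without. F13a1 was at 22.5 CPM and 16.0 CPM there, and these CPM are not per length, so they give no ranking. Of the 8 tested genes of this marker list 3 were higher in Δ/DN cultures in each condition and none was lower. Among all genes 8.6% were called with LPS and 10.5% without. With 1 library left out the count ran from 0 to 3 in both conditions, and the stromal count without LPS from 1 to 6. Their part in the results was not tested.

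Levels can be compared between genes per length only. Per kb of the gene length in the deposited tables, the Δ/DN LPS means were 594 ± 561.5 CPM for Chil3, 414 ± 49.4 for Thbs1, 72.3 ± 19.5 for Ly6c2, 26.3 ± 8.37 for Vcan, 24.9 ± 10.1 for Fn1, 5.11 ± 3.11 for F13a1 and 0.430 ± 0.305 for Plac8 (SD, n = 4). Ranges of 1 SD around the mean overlapped for Chil3 and Thbs1 and for Vcan and Fn1, and the other neighbours in the order were apart. In Δ/+ US cultures the order was Chil3 at 739 ± 181 CPM per kb, Thbs1 at 528 ± 146, Ly6c2 at 40.5 ± 20.0, Fn1 at 31.8 ± 5.64, F13a1 at 11.0 ± 2.39, Vcan at 3.47 ± 0.837 and Plac8 at 0.0545 ± 0.0278 (SD, n = 4). There Chil3 and Thbs1 overlapped, as did Ly6c2 and Fn1. The deposited lengths are longer than the merged exons of a GRCm38 annotation for 5 members, 8.2244 times for Fn1 and 8.7381 times for Plac8. Per kb of merged exons, a measure chosen after seeing the data, the Δ/+ US order was Thbs1 at 1016 ± 282 CPM, Chil3 at 697 ± 170.5, Fn1 at 262 ± 46.4, Ly6c2 at 37.5 ± 18.5, F13a1 at 19.2 ± 4.17, Vcan at 14.8 ± 3.58 and Plac8 at 0.477 ± 0.243 (SD, n = 4). There Thbs1 and Chil3 overlapped, as did Ly6c2 and F13a1 and F13a1 and Vcan. Thbs1, Chil3, Fn1 and Ly6c2 changed places with the length used, while Plac8 was last with both.

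Genes whose profile over the 15 libraries was most like each member were ranked by the root mean square difference of centred log2 CPM. Ly6c2 was nearest to Ly6c1 (0.21) and Chil3 to Chil4 (0.16), their copies. Vcan was nearest to Procr (0.27), the endothelial protein C receptor, and Dcbld2 (0.28). Fn1 was nearest to Chst11 (0.26), a chondroitin sulfotransferase, and Pltp (0.28), a phospholipid transfer protein. Thbs1 was nearest to Tgm2 (0.34), then Hilpda (0.38) and Hmox1 (0.39), heme oxygenase 1. F13a1 was nearest to Vegfc (0.34) and Znrf3 (0.39), and Plac8 to the transcription factor gene Pou2f2 (0.43). Over all genes the median difference from a member was 0.79 for Fn1 to 1.90 for Vcan. Among the members themselves Fn1 and Thbs1 were closest, at 0.55. Each member was nearer to a gene outside the set than to another member. The nearest outside gene was picked from far more genes than the nearest member, so this does not tell whether the members moved together.

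Vcan, F13a1, Fn1 and Thbs1 overlap annotated genes on the opposite strand, and whether counting used strand is not stated, so reads of these partners may be included.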

How the data were processed

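RNA of the 15 BMDC libraries was rRNA-depleted with RiboErase and prepared with the KAPA RNA HyperPrep kit, per the labels' protocols. The deposited tables hold raw read counts per gene made by the authors. Per the submitters' processing notes the tools included HISAT2 2.2.1, Trimmomatic 0.33 and featureCounts, beside FastQC, bedtools and edgeR, and the build was mm39. Their roles, parameters and use of strand are not stated there.

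From the counts, edgeR 4.0.16 (R 4.3.3) was run with TMM scaling, a filter at a minimum count of 10 (filterByExpr), robust quasi-likelihood fits of all 15 libraries with 4 groups and the library set as terms, and Benjamini-Hochberg adjustment over 20865 genes. Genes were called at an adjusted p under 0.05. SE is the log2 fold change over the root of F. Levels are CPM on TMM-adjusted library sizes, and before this scaling the libraries held 37256651 to 104041282 counted reads. Alternatives used DESeq2 1.42.0, limma 3.58.1 voom, other scalings and left-out libraries. The fits were tested on simulated data in which all libraries were independent, so that test says nothing on libraries that share a culture. Figures were drawn with matplotlib 3.10.9.

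Library names tie the LPS and US libraries of a culture. Deviations from the group means correlated at 0.0643 to 0.428 in 7 such pairs and at -0.227 to 0.138 in the 21 other pairs of a genotype. Nothing in the sources used here says that replicates are separate animals. The main edgeR fit took the LPS and US libraries of a culture as independent. Its p-values therefore rest on the spread between libraries, not between cultures.

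The members and all gene lists were chosen with earlier results of these data known. All members were named in every comparison, and from each other list up to 4 called genes of smallest p, with exceptions marked. For each member up to 3 nearest profiles were ranked. Promoters are from RefSeq (GRCm38.p6), a build other than that of the counts.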

Additional observations from a re-analysis of the deposited data

Results flagged for a closer look

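In 4 of 21 groups of 4 libraries, 1 library lay far from the others for a member by Dixon's criterion for 4 values, which chance passes in about 1 of 20 groups. Ly6c2 was at 26.8 CPM in Δ/+ US replicate 4, against 126 to 131 CPM in the other Δ/+ US libraries. Plac8 was at 12.3 CPM in Δ/DN LPS replicate 4, against 3.27 to 4.25 CPM in the other Δ/DN LPS libraries. Chil3 was at 2209 CPM in Δ/DN LPS replicate 4 and at 1627 CPM in Δ/DN US replicate 4, against 448 to 524 CPM and 376 to 548 CPM in the other Δ/DN cultures. Of these 4 values 3 came from Δ/DN culture 4, which also had the highest neutrophil marker sums. It was also the only culture with Xist above 0.0645 CPM and without reads of Ddx3y and Kdm5d. The part of these traits in the values was not tested.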

How the results depend on the processing

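Over single-gene values, 379 of the other settings left direction and call as reported, 37 gained a call, 10 lost it and 19 turned the sign; with 1 library left out these were 548, 7, 13 and 17. Thbs1 without LPS was called in every setting run. The cause of the changes was not tested.

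Members called between genotypes with LPS numbered 0 as reported, 2 with DESeq2, with library set 2 alone, with the replicate block in limma voom, without both libraries of Δ/DN culture 3 and without Δ/DN cultures 3 and 4, and 1 without Δ/DN culture 4 (0 to 1 with 1 library left out). Without LPS they numbered 2 as reported, 4 with DESeq2, with set 2 alone and with the limma replicate block, and 5 without Δ/DN culture 3 and without cultures 3 and 4 (1 to 4 with 1 library left out). For the difference of LPS effects the count was 0 as reported and 1 with DESeq2 and with the replicate block as an edgeR culture term. Neither block changed another count of members by over 1.5 times.

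Per kb of merged exons the mean level over all libraries was 1.84 CPM for Plac8, 62.2 for Vcan, 14.3 for F13a1, 218 for Fn1 and 786 for Thbs1.

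These signs turned. Plac8 between genotypes without LPS was -0.19 in set 2 alone and -0.19 without cultures 3 and 4, and its difference of LPS effects was 0.45 and 0.43 there. On total counts the LPS difference in Δ/DN and Δ/+ cultures was -0.15 and -0.21 for F13a1 and -0.26 and -0.20 for Chil3, and in Δ/+ cultures -0.64 for Fn1 and -0.48 for Thbs1. The F13a1 difference of LPS effects was 0.055 on total counts, 0.031 with no set term, 0.24 in set 2, 0.16 with the edgeR culture block, 0.094 without culture 3 and 0.22 without cultures 3 and 4. For Chil3 it was 0.19 with no set term, 0.016 in set 2 and 0.0034 without cultures 3 and 4.

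With 1 library left out, the difference of LPS effects ran from -0.63 to 0.36 for Chil3, -0.39 to 0.41 for F13a1, -0.049 to 0.58 for Ly6c2 and -0.89 to 0.056 for Plac8. The LPS difference ran from -0.27 to 0.75 for Chil3 in Δ/DN and from -0.14 to 0.13 for Fn1 in Δ/+ cultures, and Vcan between genotypes with LPS from -0.44 to 0.0021.

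Genes called over all genes numbered 1795 between genotypes with LPS, 3017 with DESeq2, 12 with only the groups compared, 2878 without culture 3 and 90 to 2233 with 1 library left out, the lowest without Δ/+ LPS replicate 2. Without LPS they numbered 2184, 3460 with DESeq2, 1383 on total counts, 1270 with no set term, 1271 in set 2, 3705 without culture 3, 1417 without cultures 3 and 4, and 174 to 3403 with 1 library left out, without Δ/+ US replicate 4 and Δ/DN US replicate 3. For the difference of LPS effects 1 gene was called, 34 with no filter, 118 with DESeq2, 4 in set 2, 156 with the culture block, 44 without culture 3, 2 without culture 4, 9 without cultures 3 and 4, 0 on total counts and 0 to 15 with 1 library left out.

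Counting error limits Plac8 most, at a count of 28 in its lowest library, and whether counts are of fragments or of single reads is not stated.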
